A study of Mus musculus with 86 samples.

Results

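Untreated hearts of B6129SF2/J mice (10 arrays) were compared with untreated hearts of C57BL/6 mice (11 arrays), which together are 21 of the 86 arrays of the series. Arrays were assigned by their titles, which name the line and the treatment. B6129SF2/J is the F2 generation of a cross between C57BL/6J and an unrelated inbred strain of the group that the middle of its name records, and C57BL/6 is an inbred line, so B6129SF2/J mice differ from one another in genotype. The series also holds FVB and B2KO hearts, a name that the labels do not explain further. Its treated mice received isoproterenol, an agonist of beta-adrenergic receptors, by infusion for 14 days at 120 µg per g per day. The treated B6129SF2/J (12 arrays) and treated C57BL/6 hearts (10 arrays) share no array with the untreated ones and are given beside them. The labels used here give neither the age nor the sex of the mice, nor a count of B6129SF2/J mice, so a p-value here refers to variation from array to array, which may be partly technical. An array is called a heart below, although the labels do not state that every array is a separate mouse.

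In a cross of inbred strains, each F2 mouse is at every locus homozygous for either parental allele or heterozygous. Where the parental alleles differ in how much RNA they yield, expression can fall into classes among F2 mice, and a mean over the group then describes no single mouse well. The same holds for a polymorphism under a probe, which can lower the signal of an allele without any change of its RNA. Hearts of inbred strains differ in genes of many kinds, and strains of the group crossed here are a known source of passenger alleles in knockout mice made from their stem cells.

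Levels are given as log2 of the deposited value, on which the median probe set of every array lies at 0, and a difference is B6129SF2/J minus C57BL/6 on that scale. Values under 0 are dim, so a difference that rests on them has an uncertain size. The arrays were checked in the following respects. Over 200 probe sets that separate FVB from C57BL/6, the B6129SF2/J arrays lay at a distance of 1.43 to 1.73 from the C57BL/6 profile and 2.23 to 2.65 from the FVB profile, and the C57BL/6 arrays at 0.42 to 0.97 and 2.58 to 3.39. The probe sets and the C57BL/6 profile came in part from these same C57BL/6 arrays, so their closeness to it was largely set beforehand. No profile of the other parental strain was at hand, so these distances do not test the B6129SF2/J label. The summed level of 9 heart muscle markers was 13.85 to 14.75 in B6129SF2/J and 13.16 to 14.33 in C57BL/6. Xist, the RNA of the inactive X chromosome, was at most −0.26 in B6129SF2/J and 0.59 in C57BL/6, and the Y-linked Eif2s3y was at least 4.54 and 4.44, so all 21 arrays read as male. B6129SF2/J replicate 8 and C57BL/6 replicate 11 had a Gapdh signal at the 3′ end that exceeded the 5′ end by 4.35 and 7.43, a sign of degraded RNA. Since whole hearts were measured, a gene that is lower because fewer cells of a type are present cannot be told apart from one with less RNA per cell.

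The C57BL/6 arrays were not homogeneous, and this bears on every count below. Replicates 1, 2, 3, 4 and 6 deviated from their group mean in the same genes, with correlations of 0.18 to 0.44 across genes between any pair of them and −0.49 to −0.18 with the other 6 arrays. Pairs among the other 6 had correlations of −0.17 to 0.555, highest for replicates 7 and 8 (0.555) and 9 and 10 (0.551). The other 6 were therefore not uniform either, and replicate 11 with its sign of degraded RNA is among them. Among the B6129SF2/J arrays the corresponding correlations ran from −0.32 to 0.14. The 75th percentile of the deposited value was 3.49 to 6.03 in these 5 arrays, 6.10 to 7.18 in the other 6, and 5.13 to 6.92 in B6129SF2/J. The labels name no batch. Each main count is therefore given with all 11 C57BL/6 arrays and without these 5, an alternative chosen after the data were seen, and the part of these arrays in the differences beyond that was not tested.

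Of 11962 genes tested, 917 differed between untreated lines by limma with Benjamini-Hochberg adjustment (7.67%), 429 of them higher in B6129SF2/J (3.59%) and 488 lower (4.08%). Without the 5 C57BL/6 arrays 119 genes passed (0.995%), and 116 of these had passed with the same sign before (0.97%), 36 higher and 80 lower. With the 5 arrays in place of the other 6, the count was 3050, of which 2371 were higher. The median difference over all genes was 0.11 with all arrays, −0.10 without the 5 and 0.37 without the other 6. The plot of the differences with 11 and with 6 C57BL/6 arrays shows that the differences of Gdpd3, Pam and Cap1 changed little, while those of Sema6c, Cryl1 and Slc8a1 shrank. Among the 12 named genes with the largest positive differences, 11 passed in both settings, the exception being Scgb1a1. Among the 12 with the largest negative differences, 5 did: Rgcc, Mid1, Dmxl1, Ddo and Xaf1. The other 7 were Sema6c, Cryl1, Rpgrip1, the Mediator subunit gene Med18 (−2.47), the synaptic adhesion gene Nrxn3 (−2.34), Pik3cd, a catalytic subunit of phosphoinositide 3-kinase (−2.31), and the scaffold gene Card14 (−2.01). The last 4 differed by −1.14, −1.25, −0.90 and −1.29 without the 5 arrays (adjusted p = 0.251, 0.117, 0.444 and 0.166).

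**Figure D1:**
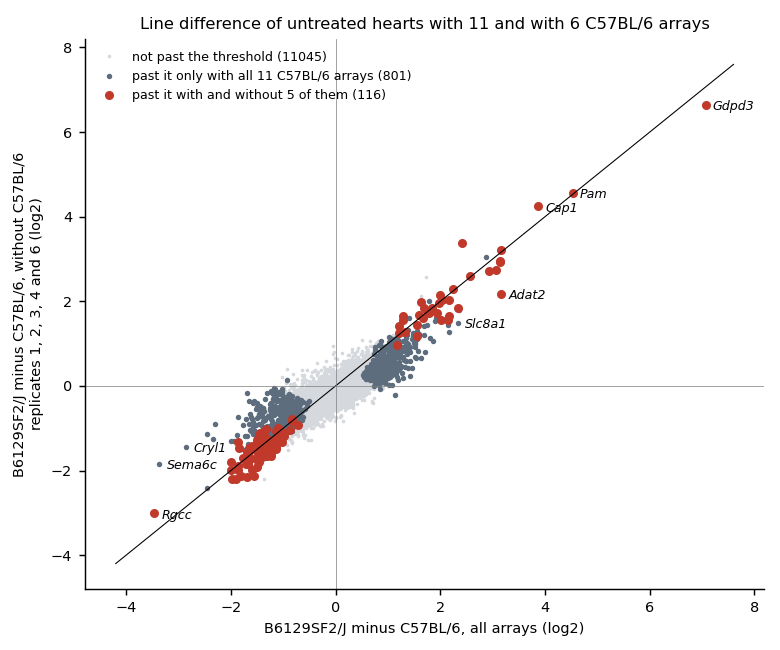
Difference between untreated B6129SF2/J and untreated C57BL/6 hearts (log2) of each of 11962 genes, with all 11 C57BL/6 arrays on the x axis and without replicates 1, 2, 3, 4 and 6 on the y axis. The 116 genes in red passed in both settings and lie near the line of equal values, whereas the 801 dark points passed with all arrays only.

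Complete separation of the groups was found for 16 genes (0.134%), with every B6129SF2/J array above (9 genes, 0.0752%) or below (7 genes, 0.0585%) every C57BL/6 array. Gdpd3, which encodes an enzyme of lysophospholipid breakdown, showed the widest separation. Its level was 2.41, 5.27 and 6.51 (lowest, median and highest) in B6129SF2/J, against −3.10, −2.11 and −1.01 in C57BL/6. The difference was 7.07 ± 0.74 (SE, adjusted p = 3.23e-11) with all arrays and 6.65 without the 5. Abhd1, a member of the alpha/beta hydrolase family, read 2.70, 4.13 and 4.97 in B6129SF2/J and 0.26, 0.88 and 1.56 in C57BL/6. Adat2, the catalytic subunit of the enzyme that edits adenosine in the anticodon of transfer RNAs, was tight in B6129SF2/J at 1.36, 2.02 and 2.34, while C57BL/6 ran from −2.94 to 0.30 with its lowest values in replicates 2, 3 and 4. Its difference was 3.16 with all arrays and 2.18 without the 5, and it passed in both settings. Dhx36, a helicase that unwinds G-quadruplexes, was 3.99 to 5.06 in B6129SF2/J and 1.23 to 3.84 in C57BL/6, and Cuedc1 was 3.19 to 4.64 and 0.32 to 2.89, with 2 of 3 probe sets of Dhx36 and 1 of 3 of Cuedc1 passing. Gpatch11 (0.11 to 1.65 and −1.57 to −0.10) and Fyttd1 (5.33 to 5.84 and 3.65 to 5.22) also passed, and 1 of the 4 probe sets of Fyttd1 passed in the opposite direction. Cavin1 and Lamb3 did not overlap but missed the threshold (adjusted p = 0.076 and 0.143 by limma). These 6 genes, and those below that are said to have been chosen so, were picked after their values were seen.

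On the lower side, Rgcc, a regulator of the cell cycle that responds to complement, was 2.00, 2.81 and 3.88 in B6129SF2/J, against 4.87, 6.35 and 7.16 in C57BL/6. It differed by −3.46 ± 0.37 (adjusted p = 3.41e-11), and by −3.01 without the 5 arrays. The size of the Rgcc difference rests on 1 probe set, since its other one read −0.41 (adjusted p = 0.322). C1qb, a chain of complement component C1q made by macrophages, was 3.52 to 4.97 in B6129SF2/J and 5.47 to 7.03 in C57BL/6. The remaining non-overlapping genes with a name, chosen after their values were seen, were the kinase gene Riok2 (1.78 to 3.71 and 3.97 to 5.60), the kinesin gene Kif5b (3.44 to 5.79 and 5.80 to 6.82), the zinc finger gene Zfp995 (0.91 to 2.36 and 2.78 to 3.98) and Nlrc5, an activator of class I antigen presentation genes (−2.25 to −0.54 and −0.37 to 2.09). For Riok2 1 of 3 probe sets passed, and for Kif5b 2 of 6 passed and 1 passed in the opposite direction. Without the 5 arrays Zfp995 missed the threshold (−1.58, adjusted p = 0.0647) and Nlrc5 passed (−1.88, adjusted p = 0.0265). In treated hearts these genes differed by 0.03 and −0.61 (adjusted p = 0.99 and 0.445). Of all 16 genes, Gdpd3, Abhd1, Adat2, Gpatch11 and Rgcc also differed with the same sign between treated lines.

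Other large differences had another form, in which some B6129SF2/J hearts read like C57BL/6 and others lay far from it. Pam encodes the enzyme that amidates peptide hormones and is abundant in atrial secretory granules. It was 6.07 to 8.03 in B6129SF2/J replicates 1, 3, 5, 6, 7 and 10, 4.75 in replicate 8 and 1.57 to 2.87 in replicates 2, 4 and 9, against −1.49 to 1.79 in C57BL/6. The difference was 4.53 ± 0.61 (adjusted p = 1.1e-07), and the B6129SF2/J mean of 5.41 lay between the hearts and at none of them. Cap1, an actin-binding protein, was 4.15 to 5.58 in 7 B6129SF2/J hearts, 0.47 in replicate 3, and −1.65 and −1.50 in replicates 5 and 1, against −1.84 to 0.46 in C57BL/6 (difference 3.86 ± 0.78, adjusted p = 0.000421). Both of its probe sets passed when tested by themselves. Kcnj14, an inwardly rectifying potassium channel, was 2.60 to 4.22 in 6 B6129SF2/J hearts, 0.68 in replicate 10 and −1.22 to −0.78 in replicates 2, 4 and 5, against −2.51 to −0.36 in C57BL/6.

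Gbp2b, an interferon-inducible guanylate-binding protein, split the B6129SF2/J hearts into 6 with levels of 0.92 to 2.97 and 4 (replicates 1, 3, 4 and 10) with −2.21 to −1.86. All C57BL/6 hearts were at −2.79 to −1.16, and the difference was 2.56 ± 0.46 (adjusted p = 8.32e-05). Ptprn2, a phosphatase-like protein of secretory vesicles, was 2.65 to 4.19 in 8 B6129SF2/J hearts, 0.56 in replicate 3 and −0.95 in replicate 4, against −1.82 to 0.22 in C57BL/6. Tmem87a, a membrane protein of the Golgi, was 2.21 to 3.20 in 5 B6129SF2/J hearts and −0.74 to 0.77 in the other 5, against −2.86 to 0.21 in C57BL/6. The low hearts were not the same from gene to gene: replicates 2, 4 and 9 for Pam, 1, 3 and 5 for Cap1, 2, 4 and 5 for Kcnj14, and 1, 3, 4 and 10 for Gbp2b.

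Lower levels were divided in the same way. Snap91, which encodes a clathrin assembly protein, was 2.04 to 2.94 in B6129SF2/J replicates 1, 2, 5 and 6 and −1.27 to 1.08 in the other 6, against 2.05 to 3.34 in C57BL/6 (difference −1.86 ± 0.33, adjusted p = 7.06e-05). Rpgrip1, a protein of the photoreceptor cilium, was −1.13 and −0.76 in B6129SF2/J replicates 3 and 2, 0.65 and 0.67 in replicates 8 and 7 and 2.82 to 4.02 in the other 6, against 2.53 to 5.86 in C57BL/6. It passed with all arrays (−2.45, adjusted p = 0.00549) and not without the 5 (−2.41, adjusted p = 0.11), and its other probe set read 0.59 (adjusted p = 0.262). Ddo, which oxidises D-aspartate, was 0.32 to 3.45 in 8 B6129SF2/J hearts and 3.91 and 4.56 in replicates 2 and 3, against 3.56 to 5.50 in C57BL/6, by 1 of its 2 probe sets (the other read −0.19). Pttg1 (securin, which guards the separation of sister chromatids) was 4.70 to 6.00 in 5 B6129SF2/J hearts and 7.70 to 8.88 in the other 5, against 7.57 to 9.04 in C57BL/6, and all 3 of its probe sets passed. The zinc finger gene Zfp945 and the T-type calcium channel gene Cacna1h, both on chromosome 17, were low in the same hearts. In replicates 1, 4, 6 and 8, Zfp945 was −1.51 to −0.15 and Cacna1h −0.19 to 1.08, and in the other 6 they were 1.59 to 2.65 and 1.77 to 3.27. C57BL/6 hearts were at 1.61 to 3.31 and 2.29 to 3.69. Only 1 of the 3 probe sets of Zfp945 passed in this direction and the other 2 passed in the opposite one, and their average gave 0.45.

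**Figure D2:**
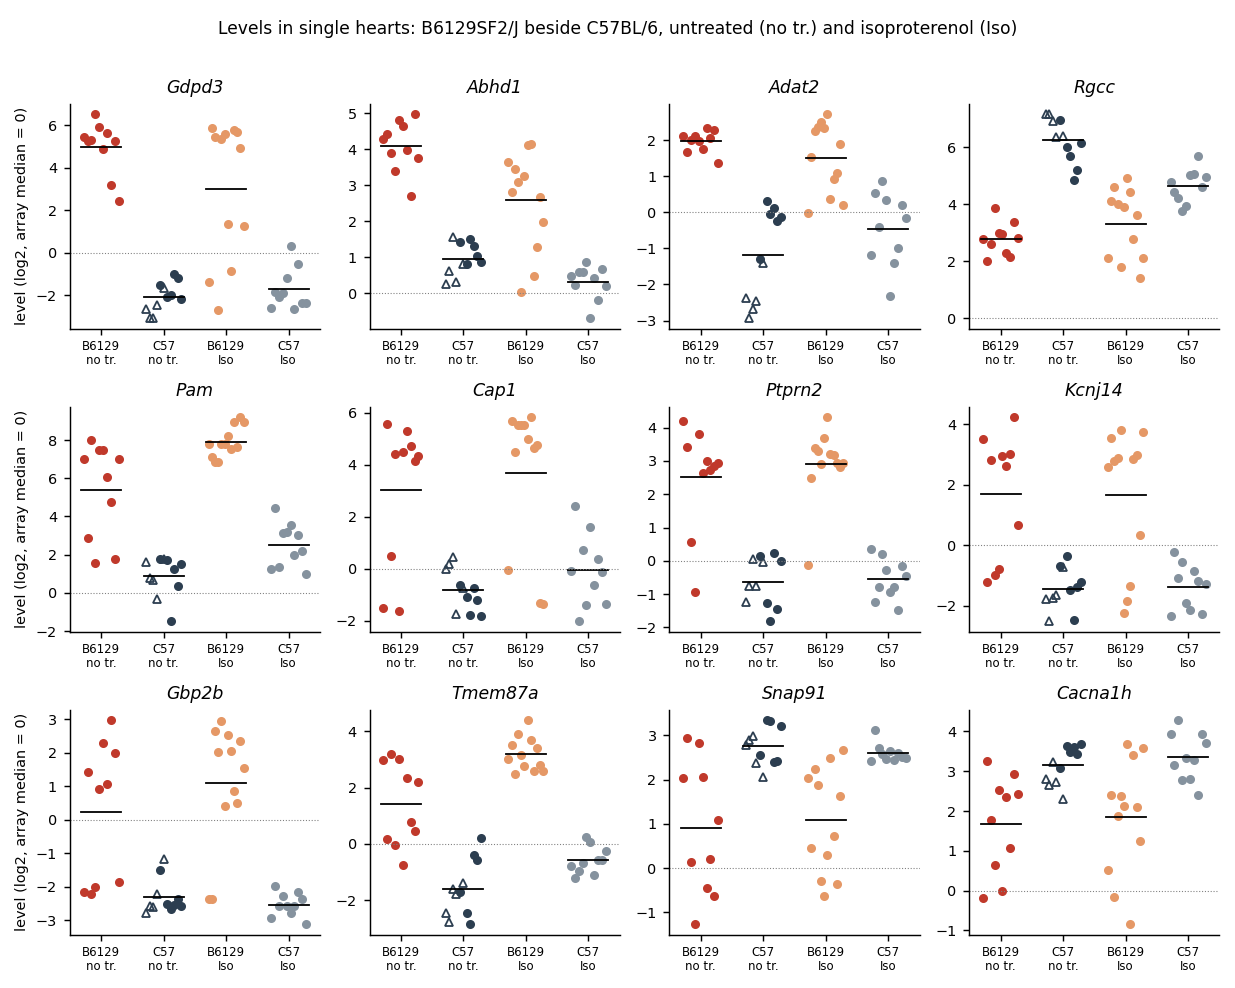
Level of 12 genes in single arrays (log2, array median at 0, 1 point an array, bar at the group mean). Red points are untreated B6129SF2/J, dark points untreated C57BL/6 (open triangles: replicates 1, 2, 3, 4 and 6), orange points treated B6129SF2/J and grey points treated C57BL/6. B6129SF2/J hearts lie wholly apart from C57BL/6 for Gdpd3, Abhd1, Adat2 and Rgcc without treatment and are divided into high and low hearts for Pam, Cap1, Kcnj14 and Gbp2b.

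Spread within the line was tested by limma on each heart's absolute deviation from its group mean. Over all genes the median SD was 0.369 in B6129SF2/J and 0.529 in C57BL/6, and only 20.7% of genes had the larger SD in B6129SF2/J. Against the other 6 C57BL/6 arrays alone, whose median SD was 0.424, this share was 38.2%. Across all genes the F2 line thus did not show the larger SD. Of 82 genes past the threshold, 13 spread more in B6129SF2/J (0.109%) and 69 more in C57BL/6 (0.577%). The 13 were Scgb1a1, Gbp2b, Snap91, Zfp945, Kcnj14, Paip1, Tmprss13, Hsd17b7, Cap1, Dmxl1, Pttg1, Pam and a gene with a clone name. In 12 of them, all but Hsd17b7, the mean differed too. The SD was 2.07 in B6129SF2/J and 0.518 in C57BL/6 for Gbp2b (adjusted p = 0.000106 for the spread), 2.80 and 0.80 for Cap1, and 2.49 and 1.04 for Pam. Paip1, which binds the poly(A)-binding protein, was 2.96 to 4.39 in B6129SF2/J replicates 1, 2, 3, 6 and 8 and −1.21 to −0.20 in the other 5, against −1.53 to 0.35 in C57BL/6. Hsd17b7, an enzyme of cholesterol and estrogen synthesis, was 0.73 to 1.32 in B6129SF2/J replicates 3, 6, 7 and 10 and 3.26 to 3.92 in the other 6, against 1.51 to 3.64 in C57BL/6.

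**Figure D3:**
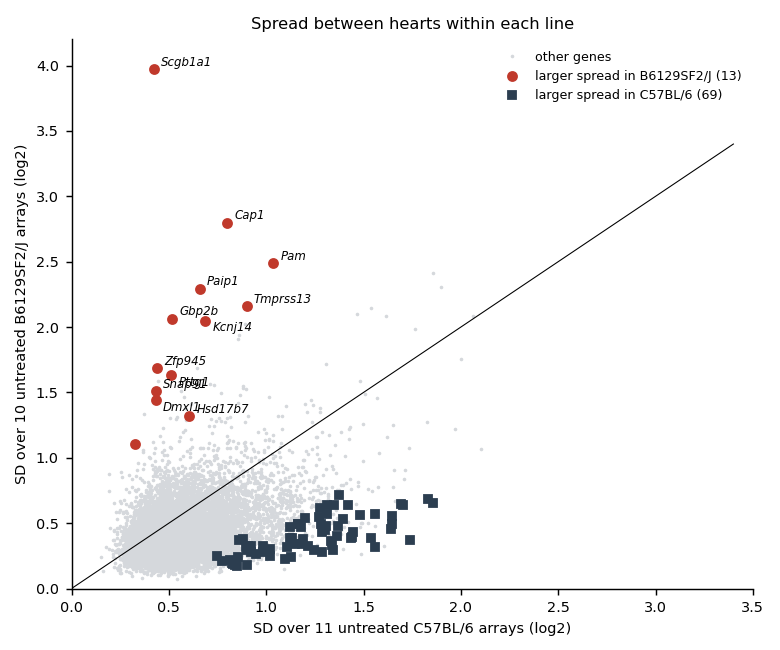
Standard deviation of each gene over 10 untreated B6129SF2/J arrays (y axis) and 11 untreated C57BL/6 arrays (x axis), log2 scale. The 13 red genes had the larger spread in B6129SF2/J and the 69 dark ones in C57BL/6, and most other genes lie below the line of equal SD.

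Among the 69 genes with the larger spread in C57BL/6, the first named ones by p-value were Tnfaip3, an inhibitor of NF-kappaB signalling, Cyp4a31, a cytochrome P450, Hip1, Eml4 and Vars. Without the 5 C57BL/6 arrays 6 genes passed the spread test, of which 5 spread more in B6129SF2/J (Scgb1a1, Gbp2b, Kcnj14, Zfp945 and Snap91) and 1 more in C57BL/6 (Abca7, chosen after its values were seen). When deviations were taken from the group median, 6 genes passed and Snap91 was the 1 with the larger spread in B6129SF2/J. The division into high and low hearts is therefore described above by the values and is not in each case a tested result.

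The same comparison was made between treated hearts, on separate arrays. There 477 genes passed (3.99%), 185 higher (1.55%) and 292 lower (2.44%) in B6129SF2/J. In both the untreated and the treated comparison 71 genes passed with the same sign (0.594%), 40 higher and 31 lower, which are 7.74% of the 917 and 14.9% of the 477. A further 24 genes passed in both with opposite signs, among them Junb. Of the 116 genes that passed with and without the 5 C57BL/6 arrays, 34 (29.3%) passed with the same sign in treated hearts, and of the other 801 genes 37 (4.62%) did. The 116 also had to pass with fewer arrays, which favours large differences. A higher share among them can follow from that alone. Of the 71 shared genes, 5 had all 10 untreated B6129SF2/J arrays beyond the C57BL/6 range. In the other 66 some arrays lay inside it, and the median number beyond it was 6 of 10 untreated and 9 of 12 treated hearts. Chromosome 9 held 11 of the 71 (15.49%, against 5.82% of all genes tested), chromosomes 4, 13 and 17 held 7 each, and chromosomes 15, 16 and 19 held none.

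**Figure D4:**
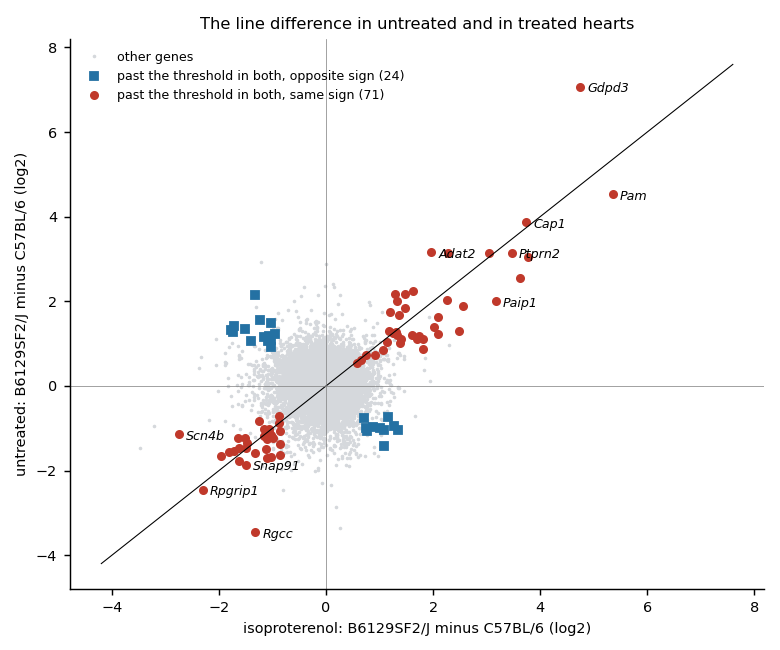
Difference between B6129SF2/J and C57BL/6 hearts (log2) without treatment (y axis) and with isoproterenol (x axis), 1 point a gene. The 71 genes in red passed in both with the same sign, from Gdpd3 and Pam at the upper right to Rpgrip1 and Scn4b at the lower left, and the 24 in blue passed in both with opposite signs.

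Pam was 6.83 to 9.19 in all 12 treated B6129SF2/J hearts, against 1.01 to 4.47 in treated C57BL/6 hearts, so no treated heart of the line fell in the low class seen in untreated replicates 2, 4 and 9. The treated difference was 5.36 ± 0.59 (adjusted p = 2.22e-10). Tmem87a likewise was 2.48 to 4.39 in all treated B6129SF2/J hearts, against −1.20 to 0.26 in treated C57BL/6. Gdpd3, which separated the untreated groups, was divided among treated hearts. Its level was 4.93 to 5.86 in 7 treated B6129SF2/J hearts, 1.23 and 1.36 in replicates 12 and 7 and −2.72 to −0.88 in replicates 1, 4 and 8, against −2.66 to 0.33 in treated C57BL/6 (difference 4.74 ± 0.72, adjusted p = 4.51e-06). Cap1 had 9 treated B6129SF2/J hearts at 4.48 to 5.82 and 3 at −1.35 to −0.04, against −2.03 to 2.41 in treated C57BL/6. Kcnj14 had 8 at 2.57 to 3.79, 1 at 0.33 and 3 at −2.23 to −1.33, and Gbp2b had 10 at 0.40 to 2.94 and 2 at −2.35. Zfp945 and Cacna1h again moved together: treated replicates 7, 9 and 12 were the only ones inside the treated C57BL/6 range for either gene. Treated replicate 7 had a Gapdh signal at the 3′ end that exceeded the 5′ end by 2.25, a sign of degraded RNA.

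Further shared genes include several with known roles in the heart or its vessels, chosen after their values were seen. Scn4b, the beta 4 subunit of the sodium channel, was 1.26, 1.92 and 3.82 in B6129SF2/J and 2.52, 3.46 and 3.84 in C57BL/6 (difference −1.14 ± 0.33, adjusted p = 0.0183). With treatment it was −0.90, −0.19 and 2.70, against 2.02, 2.86 and 3.89 (−2.76 ± 0.32, adjusted p = 1.1e-09), and the difference between the line differences, a test that 5.66% of all genes passed, passed too (adjusted p = 0.0236). Itga9, an integrin that binds tenascin-C, was 2.42, 3.81 and 4.50 in B6129SF2/J and 0.15, 1.59 and 3.02 in C57BL/6 (2.17 ± 0.29), with 1.47 in treated hearts. This rests on 1 of 3 probe sets of Itga9, the others reading 0.20 and 0.64 (adjusted p = 0.682 and 0.263). Hal, which degrades histidine, was −1.64, 1.19 and 2.32 in B6129SF2/J and −2.41, −1.67 and −0.15 in C57BL/6. Thg1l, the guanylyltransferase of histidine transfer RNA, was −0.62, 0.40 and 1.49 against −2.49, −1.77 and −0.50. The platelet-derived growth factor gene Pdgfd (−1.15 untreated and −1.02 treated) and the mitochondrial leucyl transfer RNA synthetase gene Lars2 (−1.18 and −1.17) were lower in both, although Pdgfd read 0.08 in treated hearts when its probe sets were averaged. The second probe set of Pdgfd read −0.01 in untreated hearts, and those of Lars2 read −0.70 and 0.61, none of them past the threshold. The thin filament anchoring protein Nebl was higher in both, by 0.62 and 0.65, with 1 of its 3 probe sets.

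Levels in FVB hearts, a strain that entered neither group, set these genes apart. Gdpd3 was 6.49 to 7.36 in untreated FVB, and Cap1 2.60 to 6.04, Tmem87a 2.58 to 4.14 and Itga9 3.25 to 5.16, each with a median above that of B6129SF2/J. Pam (−0.63 to 1.71), Kcnj14 (−2.54 to 0.09) and Gbp2b (−3.04 to −1.04) were at C57BL/6 levels in FVB. Pttg1 was 1.77 to 4.08 in FVB, below every heart of both compared lines, and Cacna1h was −0.74 to 0.88.

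Some genes of the sarcomere and of energy metabolism rose when all C57BL/6 arrays were used, and most did not pass. Of 18 sarcomere genes tested, 6 rose and none fell (Tnni3, Myl2, Csrp3, Nebl, Myh6 and Tnnc1), where 3.59% of all genes rose, with a list median of 0.70 where the median of all genes was 0.11. No gene passed among 9 atrial and skeletal muscle isoforms. None of the 6 passed without the 5 arrays, where the list median was 0.36, and Nebl alone passed in treated hearts, where the median was 0.01. Of 37 genes of fatty acid oxidation 7 rose, of 33 of the respiratory chain 6 and of 18 of the tricarboxylic acid cycle 2, and none of these 15 calls held without the 5 arrays or in treated hearts. With the probe sets of each gene averaged, Hadh, Ppargc1a and Esrrb of the first list turned negative (−0.61, −0.11 and −0.17). The glucose metabolism list had a similar median of 0.62, and 0.265 without the 5 arrays. Of its 25 genes, 1 rose (Pdk4) and 1 fell (Slc2a1), where 7.67% of all genes passed in either direction. Tnni3 was 10.57, 10.80 and 11.27 in B6129SF2/J and 9.41, 9.97 and 11.03 in C57BL/6. The calcium pump gene Atp2a2 (0.87, adjusted p = 0.0021) and its inhibitor Pln (0.77, adjusted p = 0.00409) behaved alike, with differences of 0.49 and 0.51 without the 5 arrays (adjusted p = 0.434 and 0.368). Only 1 of the 6 probe sets of Atp2a2 passed, the others reading −0.14 to 0.43. The sodium-calcium exchanger gene Slc8a1 was 2.70, 3.99 and 4.66 in B6129SF2/J and −0.35, 1.33 and 3.61 in C57BL/6 (2.33 ± 0.40, adjusted p = 3.22e-05), yet it missed the threshold without the 5 arrays (1.49, adjusted p = 0.0866) and 1 of its 3 probe sets passed the other way.

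Among 16 ion channel genes, Kcnh2 and Cacna1g rose and Kcnj3, Cacna1h and Scn4b fell, where 7.67% of all genes passed in either direction. Cacna1h and Scn4b kept their call without the 5 arrays and in treated hearts. Kcnj3, a subunit of the acetylcholine-gated potassium channel of the atria, was 4.51, 5.15 and 5.93 in B6129SF2/J and 5.16, 6.47 and 6.84 in C57BL/6 (−1.08 ± 0.28, adjusted p = 0.00651), and −1.11 without the 5 arrays (adjusted p = 0.0815), and 1 of its 3 probe sets passed. Of 24 adrenergic signalling genes, Pde3a, a phosphodiesterase that degrades cyclic AMP, rose and Prkaca, a catalytic subunit of protein kinase A, fell (−0.68, but 0.09 with its probe sets averaged), a share of the list near the 7.67% of all genes. Pde3a was 1.38, 2.75 and 3.63 in B6129SF2/J and −0.42, 0.82 and 2.38 in C57BL/6 (1.94 ± 0.39, adjusted p = 0.000371). It passed without the 5 arrays (1.72, adjusted p = 0.0424) and differed by 0.23 in treated hearts (adjusted p = 0.851). The second probe set of Pde3a read 0.54 (adjusted p = 0.421). Of 17 clock genes, the repressor Cry1 was lower at 0.71, 2.24 and 2.75 in B6129SF2/J and 2.57, 3.25 and 4.02 in C57BL/6 (−1.36 ± 0.26, adjusted p = 0.00022), with or without the 5 arrays. The clock repressor Nr1d1 was higher with all arrays only (1.36, adjusted p = 0.02). No gene of the extracellular matrix list (37 tested) or of the hypertrophy and stretch list (20 tested) passed.

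Immune genes went both ways. Of 25 macrophage and monocyte genes 6 fell and none rose (C1qb, Ctss, Ccr2, Lgals3, Fcgr1 and Adgre1), where 4.08% of all genes fell, and the list median was −0.27 with all arrays and −0.56 without the 5, where 4 of the 6 calls held. Ctss, a lysosomal protease of antigen-presenting cells, was 2.41, 4.21 and 4.79 in B6129SF2/J and 4.53, 5.46 and 6.26 in C57BL/6 (−1.49 ± 0.30, adjusted p = 0.00056). Lgals3 (galectin-3) was 0.87, 2.54 and 3.51, against 2.33, 3.70 and 4.45. Ccr2, the receptor that brings monocytes into tissue, differed by −1.70 (adjusted p = 0.000736), and by −1.18 without the 5 arrays (adjusted p = 0.202), and 1 of its 4 probe sets passed. The list did not move as a whole. The partners of C1qb in C1q gave a difference of −0.32 for C1qa (adjusted p = 0.77) and 0.04 for C1qc (adjusted p = 0.957), the macrophage receptor gene Csf1r, chosen like them after its values were seen, one of −0.15 (adjusted p = 0.743), and 1 of the 3 probe sets of C1qb itself read −0.20. None of the 25 genes passed in treated hearts. Msr1, a macrophage scavenger receptor gene, was not on the list and was chosen after its values were seen. It was higher in B6129SF2/J in both comparisons. In 4 of 10 untreated and 7 of 12 treated arrays it lay above the C57BL/6 range.

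Interferon-stimulated genes had a list median of −0.44 over 27 tested, with 4 lower (Xaf1, Oasl2, Irf9 and Gbp2; 4.08% of all genes) and none higher, of which Xaf1 held without the 5 arrays. That none was higher holds for this list only. The interferon-inducible genes Gbp2b and Ifi202b stood on the list of genes known to vary between strains, and both were higher. Xaf1, an inducer of apoptosis, was −0.16, 2.24 and 3.53 in B6129SF2/J and 2.90, 3.90 and 4.95 in C57BL/6 (−1.90 ± 0.40, adjusted p = 0.000864), and its second probe set passed in the opposite direction. Of 20 chemokine and cytokine genes, Cxcl9 and Il15 fell. Il15, which sustains natural killer and memory T cells, was 0.18, 3.77 and 4.52 in B6129SF2/J and 4.15, 4.56 and 5.88 in C57BL/6 (−1.47 ± 0.39, adjusted p = 0.00877), and passed without the 5 arrays. No gene of the class I and class II antigen presentation list passed among 13 tested.

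Of 11 B cell genes measured, 8 had a group mean over 0 and were tested. Of these, 5 were higher in B6129SF2/J (Mzb1, Cd79b, Cd79a, Jchain and Ighm), where 3.59% of all genes rose. The list median was 1.30, and 1.04 without the 5 arrays. Since any group mean over 0 is enough, a gene can enter through the group where it is high. Jchain had a median of 2.07 in untreated B6129SF2/J and of −1.01 or less in the other groups of these lines. The share called is therefore no result by itself. For Cd79a and Jchain, 3 of 10 B6129SF2/J arrays lay above the C57BL/6 range. Jchain, which joins secreted immunoglobulin chains, was −0.23, 2.07 and 5.71 in B6129SF2/J and −1.94, −1.01 and 3.01 in C57BL/6 (2.42 ± 0.64, adjusted p = 0.00973). Mzb1, a chaperone of plasma cells, differed by 1.59 (adjusted p = 0.00172), and Jchain and Mzb1 passed without the 5 arrays. The summed level of 5 B cell markers was 3.38, 5.07 and 8.23 in B6129SF2/J, highest in replicates 10, 4 and 2, and 2.81, 3.67 and 5.60 in C57BL/6. Since Cd79a, Cd79b, Jchain and Ighm are among these markers, this sum is no separate evidence. In treated hearts the list median was −0.21 and no gene of it passed. Scgb1a1, the secretoglobin of airway club cells, was 5.64, 7.38 and 8.90 in B6129SF2/J replicates 10, 1 and 6 and at most 0.18 in the other 7, against −1.71 to −0.07 in C57BL/6. Its difference was 2.87 ± 0.79 (adjusted p = 0.0122), and 3.05 without the 5 arrays (adjusted p = 0.118). The summed level of 5 lung markers was 0.85, 1.42 and 8.90 in B6129SF2/J and 0.56, 0.93 and 1.82 in C57BL/6. Scgb1a1 is itself among these markers, so this sum is no separate evidence. Of the other lung markers Sftpc reached 4.37 in B6129SF2/J and 0.66 in C57BL/6, while Sftpa1 lay under the array median in all 21 arrays. Whether lung tissue or B cells taken with the heart had a part in these differences was not tested.

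**Figure D5:**
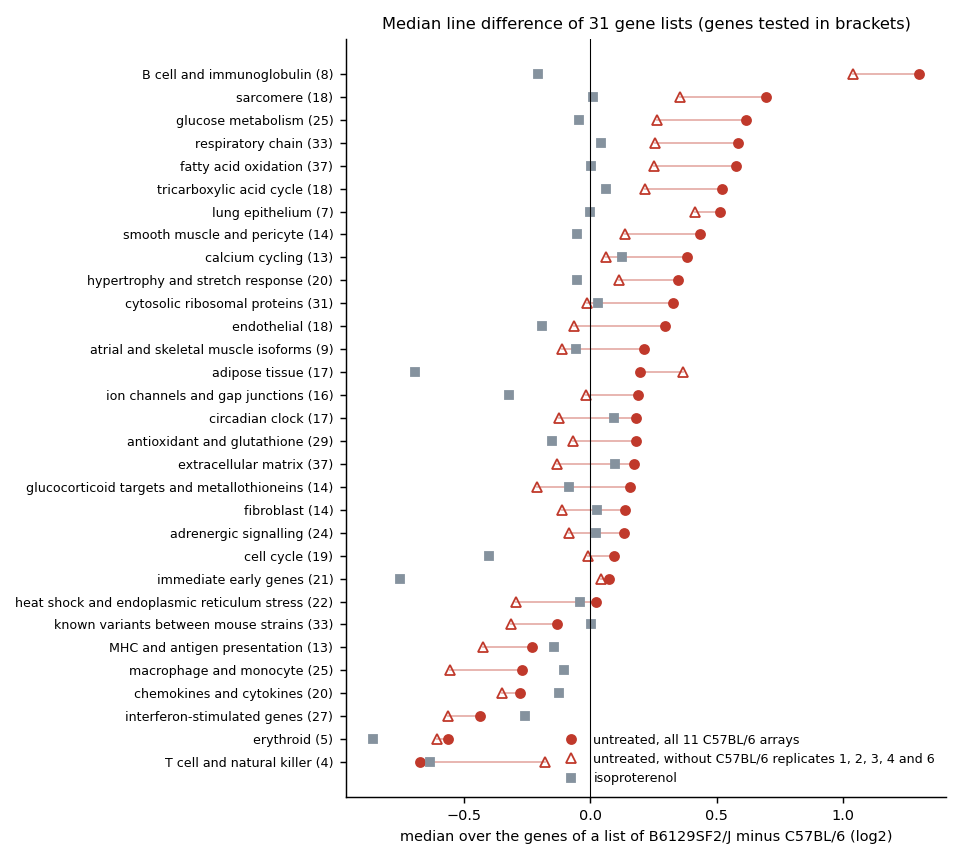
Median over each gene list of the difference between B6129SF2/J and C57BL/6 hearts (log2): untreated with all 11 C57BL/6 arrays (filled circles), untreated without replicates 1, 2, 3, 4 and 6 (open triangles) and treated (grey squares). B cell genes stand highest at 1.30 and 1.04, and interferon and macrophage lists lie below 0 in both. The sarcomere, fatty acid oxidation, tricarboxylic acid cycle, respiratory chain and glucose metabolism lists lie between 0.52 and 0.70 with all arrays. Without the 5 they lie between 0.22 and 0.36.

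A list of 33 tested genes known to vary between laboratory mouse strains held 3 higher and 2 lower, where 7.67% of all genes passed. Besides Gbp2b, Ifi202b, an interferon-inducible gene reported to be silent in C57BL/6, was −1.29, 0.83 and 2.01 in B6129SF2/J and −2.24, −1.63 and −0.22 in C57BL/6 (2.03 ± 0.44, adjusted p = 0.00116), with 2.25 in treated hearts. Lepr, the leptin receptor, was higher by 1.20 (adjusted p = 0.00116) and by 1.61 in treated hearts, but not past the threshold without the 5 arrays. Cyfip2, a regulator of actin that carries a known variant in some C57BL/6 substrains, was 2.79, 4.17 and 6.90 in B6129SF2/J and 5.40, 6.25 and 7.33 in C57BL/6 (−1.81 ± 0.38, adjusted p = 0.000683), with both probe sets passing. Trim12a differed by −1.14 ± 0.33 (adjusted p = 0.0179). Cyfip2 and Trim12a passed without the 5 arrays and did not pass in treated hearts (−0.74 and −0.85). No Y-linked gene passed among 4 tested.

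Called genes were also neighbours in places, by gene order in the GRCm38.p6 table. With 7.67% of all genes called, some neighbours would be called at random, and whether there were more than that was not tested. The longest runs had 3 called genes at most 5 gene places apart. On chromosome 14, Ttc5, a cofactor of p53, was 2.23, 2.95 and 4.08 in B6129SF2/J and −2.09, 0.57 and 2.63 in C57BL/6 (2.33 ± 0.33, adjusted p = 3.97e-07). Its neighbour Ccnb1ip1, a ubiquitin ligase of meiotic crossing over, was −1.80, 0.36 and 1.22, against −2.63, −2.15 and −1.09 (2.00 ± 0.31, adjusted p = 6.17e-06). A predicted gene in the same run differed by −1.72 (adjusted p = 0.00129), and all 3 passed without the 5 arrays. On chromosome 10, Adat2 was higher, whereas Phactr2 (−0.88) and Zc2hc1b (−1.02) were lower, and of these Adat2 alone passed without the 5 arrays (Phactr2 −0.94, Zc2hc1b −0.16). On chromosome 13, the zinc finger genes Zfp874a (−1.67, adjusted p = 0.00029) and Zfp429 (−1.31, adjusted p = 0.00422) were lower and Zfp58 higher (0.87, adjusted p = 0.0309), of which Zfp874a alone passed without the 5 arrays. There were 13 such runs with 39 genes, of which 10 runs held both signs, 2 were higher throughout and 1 lower throughout. Junb, Hook2 and Tnpo2 on chromosome 8 were all higher, and none of them passed without the 5 arrays. In another run on chromosome 8, Eps15l1 was higher (0.73), and Cherp (−0.94) and a gene with a clone name (−0.76) were lower. On the X chromosome, Hdac6 was higher (0.94), and Slc35a2 (−0.895) and Timm17b (−0.72) were lower. No gene of either run passed without the 5 arrays. Over all 13 runs, 6 of the 39 genes passed without these arrays.

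Malat1, a nuclear long noncoding RNA, was among the largest differences without treatment and not with it. It was 6.68, 8.80 and 9.09 in B6129SF2/J and 3.79, 5.53 and 7.69 in C57BL/6 (2.93 ± 0.55, adjusted p = 0.000173), and 4 of its 7 probe sets passed in this direction and none in the other. With treatment it was 5.20, 6.64 and 7.93 in B6129SF2/J and 6.78, 7.98 and 8.50 in C57BL/6 (−1.21 ± 0.54, adjusted p = 0.218), and the 2 differences themselves differed (adjusted p = 0.000414). The semaphorin gene Sema6c (−3.37) and the crystallin-like gene Cryl1 (−2.86) followed Rgcc in the size of the negative difference. Their levels within C57BL/6 ran from −0.27 to 4.28 and from 1.35 to 7.20, their differences were −1.84 and −1.44 without the 5 arrays (adjusted p = 0.139 and 0.343), and in treated hearts they were 0.26 and 0.19. Each rests on 1 probe set, the other of Sema6c reading −0.20 and the others of Cryl1 0.33 and 0.02.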

How the data were processed

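Hearts were measured on 86 single-colour expression arrays of 45101 probe sets. The authors deposited linear intensity values, made with GCRMA per the submitters' processing notes, with every array at a median of 1. Here log2 was taken. Of the probe sets, 34945 had 1 gene symbol, and the probe set with the highest mean stood for its gene, giving 18193 genes. Genes whose highest group mean was over 0 (11962) were fitted in limma 3.58.1 (R 4.3.3) over all 8 groups, with Benjamini-Hochberg adjustment at 0.05. All adjusted p-values are from such fits. The 2 near-identical arrays treated B2KO 4 and 9 (r = 0.99999976) were averaged and counted as 1 sample. Spread was fitted on absolute deviations from the group mean, scaled for group size. The scripts were tested on simulated data.

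The text names the 12 largest differences in each direction, the genes with the largest rise of spread and the 5 of smallest p with a larger spread in C57BL/6, up to 4 members of each gene list by p, the 6 most compact runs of 3 neighbouring called genes, and the 8 largest differences shared with treated hearts; further members stand where all called members of a list are given, and other genes are marked as chosen after their values were seen. Comparison, gene lists and members were chosen with earlier results of these data known. Alternatives varied the filter, the summary of probe sets, the normalization, the variance model, the arrays used and a block for the replicate number. Replicate numbers do not pair hearts: same-numbered arrays of the lines had correlations of deviations of −0.12 to 0.18, with 4 of 10 over 0.1. The number of arrays limits the precision, and the median SE was 0.26.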

Additional observations from a re-analysis of the deposited data

Results flagged for a closer look

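Among B6129SF2/J hearts, 7 of the 107 named genes tested had a heart whose gap to the next exceeded Dixon's critical value for 10 samples, and chance gives about 1 in 20. Malat1 was 6.68 in replicate 3, against 8.27 to 9.09 in the other 9. Pde3a was 1.38 in replicate 1, against 2.53 to 3.63 in the others. Tnfaip3 was 0.08 in replicate 10, against 0.68 to 1.33, and the synthetase gene Vars −0.12 in replicate 8, against 1.24 to 2.31. Zfp429 was 1.11 in replicate 7, against −1.94 to −0.35, and Myh6 12.76 in replicate 3, against 11.60 to 12.20. Gclm, the modifier subunit of the enzyme of glutathione synthesis, was 2.32 in replicate 3, against 3.73 to 4.55.

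The line difference itself differed between untreated and treated hearts in 32 of 105 named genes tested (limma, adjusted p). Most of these genes were chosen for a large untreated difference, which raises this value, so their share is no result, and among all 917 genes called without treatment 335 (36.5%) passed. The 5 C57BL/6 arrays enter every one of these values. Untreated minus treated, it was larger by 4.14 for Malat1, 3.15 for the immediate early gene Junb, 2.74 for Slc8a1, 2.60 for Dhx36 and 2.34 for Ighm. Values of 2.26 for Nr1d1, 2.18 for Ttc5, 2.16 for Vars, 1.94 for Mzb1, 1.85 for Cacna1g and 1.82 for Cd79b followed. The remaining positive ones were 1.76 for Gclm, 1.74 for Kcnh2, 1.71 for Pde3a, 1.62 for Scn4b and 1.56 for Tnfaip3. For Scn4b this means a larger deficit in treated hearts (−2.76) than in untreated ones (−1.14).

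On the negative side the values were −3.63 for Sema6c, −3.05 for Cryl1, −2.14 for Rgcc, −1.99 for Ccr2 and −1.96 for Cyp4a31. Those of Dmxl1 (−1.84), Cry1 (−1.70), Zfp995 (−1.66), Riok2 (−1.65) and C1qb (−1.40) were smaller. Nrxn3 gave −2.43, Pik3cd −2.23, Epcam −1.93, Card14 −1.79, Camk2d −1.34 and Hsp90aa1 −0.97. Rgcc kept a difference of one sign in both treatments, at −3.46 untreated and −1.33 treated.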

How the results depend on the processing

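The count of 917 genes between untreated lines was 841 without a filter, 999 with probe sets averaged and 910 with trended robust variances, and a block for the replicate number gave 921. It was 536 with the stricter filter, which tests fewer genes, 1668 after quantile normalization, 1611 with arrays centred on their genes, 1561 from the 21 arrays alone, 2010 with a weight for each group, 2284 over single probe sets and 2309 without 8 doubtful arrays. Of these 8, 5 showed the sign of degraded RNA, B6129SF2/J replicate 8 and C57BL/6 replicate 11 among them. Treated B2KO 10 failed, with a median correlation of 0.573 with other arrays. The other 2 were in doubt by line. Treated FVB 2 lay 1.07 from the C57BL/6 profile and 3.04 from the FVB profile. Treated B2KO 7 lay 1.635 from the B2KO profile and 2.41 from that of C57BL/6. All 8 stayed in the main fit, whose groups share an estimate of the spread. The count was 119 without the 5 C57BL/6 arrays and 3050 without the other 6. Leaving out single arrays gave 628 to 1072, lowest without C57BL/6 replicate 1. Averaging probe sets moved the share that was higher from 46.8% to 65.2%, and leaving out the doubtful arrays gave 1545 higher and 764 lower. The treated count of 477 became 192, 765, 971, 989 and 1121 with the stricter filter, averaged probe sets, quantile normalization, centring and without doubtful arrays; its share of higher genes was 38.8%, and 54.1% and 60.1% after quantile normalization and centring.

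The spread count of 82 became 27, 47, 210 and 607 with the stricter filter, averaged probe sets, the 21 arrays alone and without doubtful arrays, 6 with deviations from the median, 6 without the 5 C57BL/6 arrays and 1 without the other 6. Single arrays left out gave 45 to 88, with 45 without C57BL/6 replicate 2 and 46 without replicate 4. The 71 shared genes became 163 without doubtful arrays (69 of the 71 among them), 127 after quantile normalization (62 among them) and 34 without the 5 arrays. With the replicate block the treated count was 478, the spread count 78 and the shared count 71, and no count moved by over 1.5 times. The cause of these changes was not tested.

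Signs turned for single genes. With probe sets averaged the untreated difference became 0.10 for Xaf1, 0.45 for Zfp945, 0.13 for Camk2d, 0.09 for Prkaca, −0.11 for Ppargc1a, 0.16 for Hsp90aa1, 0.14 for Prxl2c, −0.61 for Hadh, −0.17 for Esrrb and −0.07 for Fyttd1, and the treated one 0.08 for Pdgfd. Quantile normalization gave −0.04 for Mdh2. Without the 5 arrays Tnfaip3 was −0.21 and Eps15l1 −0.01, and the spread difference was 0.11 for Hip1 and 0.07 for Epcam. Without the other 6 it was 0.07 for Gclm, 0.06 for Hip1, 0.24 for Pik3cd and 0.16 for Epcam. Of 173 untreated, 24 spread and 71 treated results for single genes, 42, 0 and 51 kept sign and side of the threshold under every alternative run. Levels under the array median limit the precision of fold sizes: in 34 of the 71 shared genes the mean of a line lay there.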
